A study of Mus musculus with 7 samples.

Results

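Guanylate-binding proteins (GBPs) and immunity-related GTPases (IRGs) were followed in microglia from inside and outside neural grafts. The set held 10 of the 55341 gene names in the deposited count table, chosen by name as targets of interferon gamma: Gbp2, Gbp3, Gbp5, Gbp7, Gbp9, Irgm1, Irgm2, Igtp, Iigp1 and Ifi47. After removal of genes with low counts, 15257 genes were tested, and 9 of the 10 genes were among them. Ifi47 had too few counts to be tested.

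The microglia were CD11b+CD45low cells sorted from the cortex of 14-week-old 5xFAD mice on the C57BL/6 strain, 4 weeks after embryonic cortical cells from wild-type (WT) mice had been injected. All 7 libraries came from this genotype, whose human APP and PS1 transgenes carry familial Alzheimer's disease mutations and are driven by the neuronal Thy1 promoter, a promoter chosen for neurons rather than microglia. There were 3 libraries from inside the graft and 4 from small cortical pieces near the transplant, called outside the graft here, and no library came from mice without a graft or without the transgenes. The labels do not say which libraries came from separate mice, so P values measure only the spread between these samples, which may be technical.

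GBPs and IRGs are large GTPases that cells make after exposure to interferons. They assemble on vacuoles and on bacteria or parasites in the cytosol, break these membranes open and expose their contents to autophagy and to inflammasomes. In mice the 3 IRGM proteins sit on the cell's own membranes and keep the effector IRGs inactive there. Interferon gamma reaches many of its genes through a DNA element called the gamma-activated site (GAS), whereas type I interferons act mainly through the interferon-stimulated response element (ISRE). IRF1, a transcription factor itself induced by interferon gamma, also binds the ISRE.

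The stretches before the transcription starts show where the genes hold these elements. RefSeq promoters on GRCm38.p6, from 250 bases before to 50 bases after each start, were found for 8 of the 10 genes. None was available for Gbp9 or Iigp1, so these were not searched. They were searched for an ISRE core (GAAA, any 2 bases and GAAA again, or on the other strand TTTC, any 2 bases and TTTC again) and for a GAS core (TTCNNNGAA, which reads the same on both strands). An ISRE core was present in 7 of the 8 genes and in 3.44% of all 32851 promoters. A GAS core was present in 4 genes and in 8.3% of all promoters, and the same 4 genes, Gbp5, Gbp7, Igtp and Irgm2, had both, as did 0.454% of all promoters. Both motifs can share the letters TTC or GAA, but no GAS core overlapped an ISRE core in the stretches printed here. A match describes letters and is not a measured binding site. Capitals mark the matches in the following stretches, each written 5′ to 3′ on the gene's own strand. Those of Igtp, Irgm2, Gbp7 and Gbp5 are shown because they hold both motifs, and those of Gbp3 and Irgm1 because each holds a pair of ISRE cores that overlap.
Igtp, chr11:58199496-58199546, plus strand: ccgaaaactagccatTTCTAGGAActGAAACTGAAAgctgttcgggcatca
Irgm2, chr11:58214887-58214937, plus strand: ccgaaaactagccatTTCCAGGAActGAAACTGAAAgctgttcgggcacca
Gbp7, chr3:142530215-142530307, plus strand: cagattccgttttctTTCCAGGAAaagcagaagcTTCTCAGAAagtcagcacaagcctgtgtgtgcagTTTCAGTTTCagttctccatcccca
Gbp5, chr3:142496684-142496905, plus strand: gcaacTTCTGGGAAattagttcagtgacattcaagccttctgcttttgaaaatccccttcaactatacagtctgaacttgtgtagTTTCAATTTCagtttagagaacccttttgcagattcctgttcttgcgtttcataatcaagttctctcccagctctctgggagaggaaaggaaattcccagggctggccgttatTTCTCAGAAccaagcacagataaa
Gbp3, chr3:142559984-142560029, plus strand: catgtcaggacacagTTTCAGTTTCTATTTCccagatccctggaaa
Irgm1, chr11:48871421-48871465, minus strand: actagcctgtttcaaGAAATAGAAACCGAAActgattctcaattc

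The stretches of Igtp and Irgm2 differed at 2 of 51 positions, and both held a GAS core followed after 2 bases by an ISRE core. The same spacing was found in the related genes Tgtp1, Tgtp2 and Gm12185. Gbp2 had a single ISRE core and no GAS core. The Ifi47 window held neither, which says only that these letters are not in this window. The Gbp3 promoter printed here is the first of a pair in the table, and the second held no match. The stretches of Gbp3 and Gbp5 reach by a few bases into an annotated first exon, and that of Irgm1 lies in the exon of a noncoding transcript of the gene.

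**Figure D1:**
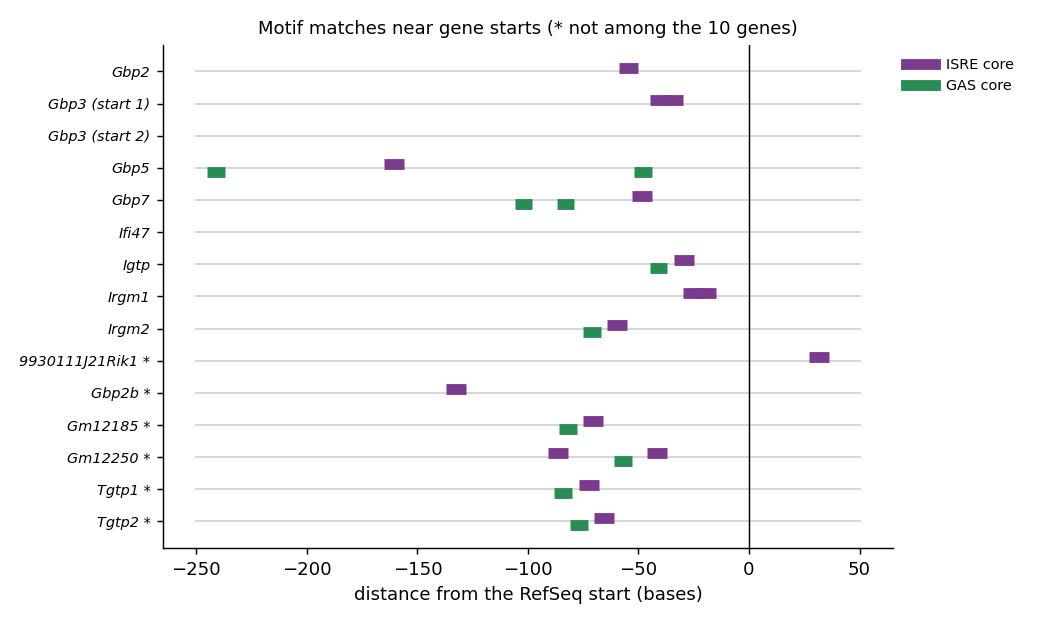
Matches to the ISRE core (purple) and to the GAS core (green) along each RefSeq promoter window, with distance from the start in bases on the x axis. There is 1 line for each promoter found for the 10 genes, with none for Gbp9 or Iigp1. Lines marked by an asterisk are other genes of the families that hold a match. Igtp, Irgm2, Tgtp1, Tgtp2 and Gm12185 share a GAS core followed after 2 bases by an ISRE core, and Ifi47 has no match.

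Depth was similar between the libraries. Total counts ran from 23241114 to 25882122 inside and from 18644807 to 24599193 outside the graft. Levels are given as CPM, counts relative to library size after scaling with the trimmed mean of M values, in the usual unit per 1e6 counts. The quality weight that limma's voomWithQualityWeights gave a library ran from 0.448 in outside graft 1 to 1.76 in outside graft 4. All 12 microglia marker genes were detected, with summed levels of 48224 to 55929 CPM inside and 55215 to 61228 CPM outside the graft.

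The GBPs were first. Gbp2, which coats vacuoles and cytosolic bacteria, had 16.5, 54.1 and 44.2 CPM in inside graft 1, 2 and 3, and 25.4, 13.1, 27.9 and 23.0 CPM in outside graft 1 to 4. Inside graft 2 and 3 lay above every outside library, but inside graft 1 was second lowest of all 7, so the groups overlapped. Inside minus outside the graft, the log2 fold change was 0.77 (standard error 0.38, 95% confidence interval -0.06 to 1.61). The quasi-likelihood test of edgeR gave an adjusted P of 0.564, by the Benjamini-Hochberg method over all genes tested. In bulk libraries such as these, fewer cells that express a gene and less RNA per cell cannot be told apart.

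Gbp5, which promotes assembly of the NLRP3 inflammasome, had 6.28, 17.4 and 23.5 CPM inside and 5.66, 9.65, 14.2 and 14.4 CPM outside the graft. Inside graft 1 again lay low, beside outside graft 1, while the other inside libraries lay above all from outside. Its log2 fold change was 0.52 (95% confidence interval -0.47 to 1.51) in edgeR and 0.03 (-0.90 to 0.95) in voomWithQualityWeights. Both intervals include 0, and the cause of the gap between the estimates was not tested.

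Gbp7, a partner of autophagy and of the phagocyte oxidase, had 92.7, 90.3 and 66.1 CPM inside and 53.1, 56.2, 95.2 and 85.7 CPM outside the graft. The highest library was outside graft 3, and the groups overlapped. Gbp9 had 43.2, 50.2 and 55.2 CPM inside and 79.4, 41.6, 42.4 and 54.4 CPM outside, where outside graft 1 alone lay above the rest. Gbp3 had 22.6, 26.3 and 27.3 CPM inside and 39.4, 20.9, 35.2 and 31.4 CPM outside, so that outside graft 2 lay below all inside libraries and the others above them. Log2 fold changes were 0.19 for Gbp7 (95% confidence interval -0.31 to 0.69), -0.14 for Gbp9 (-0.65 to 0.37) and -0.32 for Gbp3 (-0.82 to 0.18). These intervals do not reach 1 in either direction, so a change of the mean above 2-fold lay outside them. The adjusted P values in edgeR were 0.870, 0.919 and 0.736. The sign for Gbp9 was set by a single library, since its log2 fold change was 0.10 without outside graft 1.

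The IRGM regulators came next. Igtp, also named Irgm3, had 85.9, 126 and 89.6 CPM inside and 97.3, 79.9, 92.9 and 98.7 CPM outside the graft. Inside graft 2 stood above the others, and the remaining inside libraries lay within the outside range. Its log2 fold change was 0.12 (standard error 0.16, 95% confidence interval -0.22 to 0.47, edgeR adjusted P = 0.882) and turned to -0.07 without inside graft 2.

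Irgm2, a regulator at the Golgi and vacuole membranes, had 109.5, 119.9 and 91.6 CPM inside and 105.8, 91.1, 142.8 and 143.7 CPM outside the graft. Outside graft 3 and 4 were highest, outside graft 2 was lowest, next to inside graft 3, and outside graft 1 lay among the inside libraries. Irgm1, which acts in autophagy and mitochondrial quality control, had 18.998, 26.3 and 18.4 CPM inside and 18.7, 12.7, 18.3 and 18.2 CPM outside. All libraries of Irgm1 but inside graft 2 and outside graft 2 lay within a narrow band from 18.2 to 18.998 CPM. The log2 fold changes were -0.18 for Irgm2 (95% confidence interval -0.58 to 0.22, edgeR adjusted P = 0.846) and 0.32 for Irgm1 (-0.18 to 0.82, edgeR adjusted P = 0.735).

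The effector IRGs were Iigp1 and Ifi47. Iigp1, also named Irga6, is the GTPase that oligomerizes on the vacuole of Toxoplasma. It had 16.8, 44.1 and 34.4 CPM inside and 11.3, 3.91, 10.1 and 3.97 CPM outside the graft. All inside libraries were above all outside libraries, although inside graft 1 and outside graft 1 were near each other. The means were 31.8 ± 13.8 CPM (SD, n = 3) inside and 7.31 ± 3.92 CPM (SD, n = 4) outside. The log2 fold change was 2.12 (standard error 0.45, 95% confidence interval 1.12 to 3.12), so the whole interval lay above 1. The unadjusted P in edgeR was 0.000773, and after adjustment over all 15257 genes it was 0.0994. In voomWithQualityWeights the log2 fold change was 2.21 (95% confidence interval 1.23 to 3.19, adjusted P = 0.0552). Neither test called Iigp1 at an adjusted P of 0.01 or of 0.05. It passed 0.01 in the DESeq2 Wald test (adjusted P = 0.000251), which called 1.52% of all genes at this threshold, and in edgeR without the filter on low counts (adjusted P = 0.00117), which called 0.644%. With each library left out in turn its log2 fold change stayed between 1.81 and 2.43 in edgeR and between 1.98 and 2.68 in voomWithQualityWeights.

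Ifi47, also named Irgd, the second effector, had 8, 4 and 4 counts inside and 1, 0, 3 and 2 counts outside the graft. The lowest inside count was above the highest outside count, at the edge of detection. In edgeR without the filter on low counts the log2 fold change was 1.69, with a 95% confidence interval from -1.71 to 5.09, so neither direction nor size can be read at this depth.

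**Figure D2:**
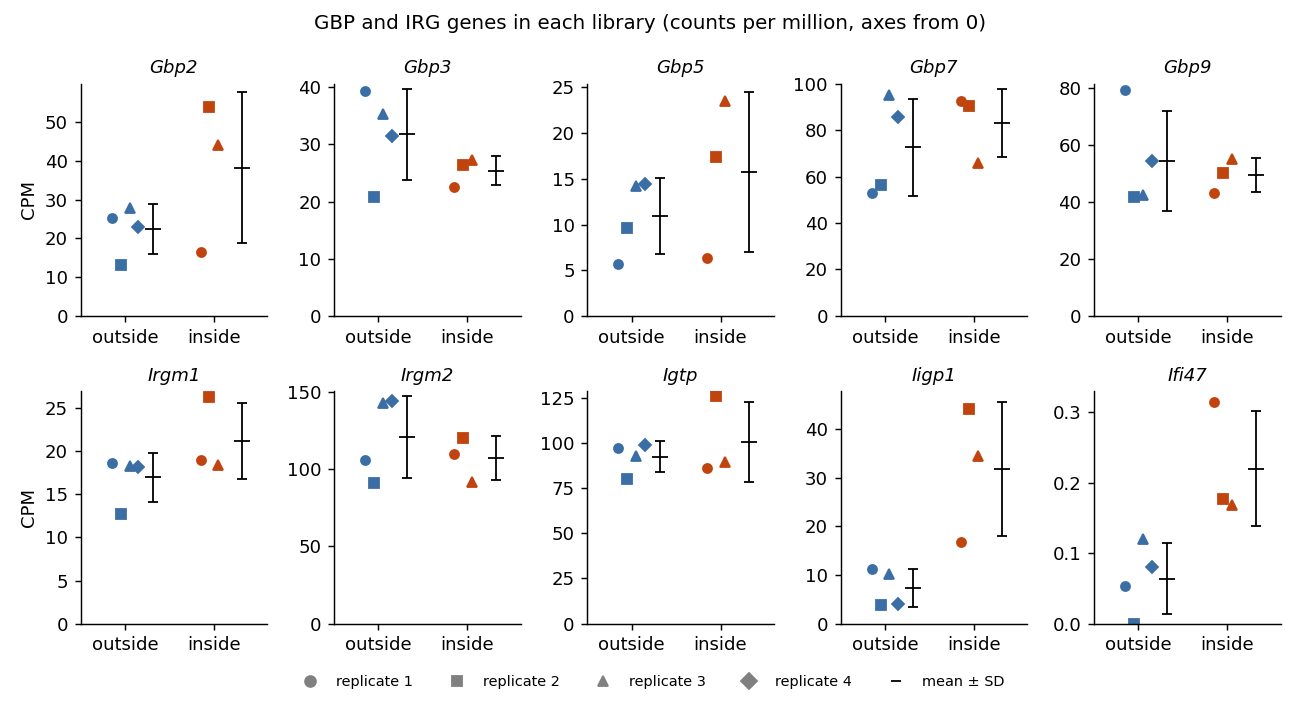
Level of each of the 10 genes in CPM (y axes from 0, a scale of its own for each gene) in the 4 outside (blue) and 3 inside (red) libraries, with the replicate number as the marker shape and the mean ± SD beside the points. For Iigp1 the inside libraries (16.8 to 44.1 CPM) lie above the outside libraries (3.91 to 11.3 CPM), whereas the groups overlap in the other 8 tested genes.

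Side by side, the 9 tested genes had a median log2 fold change of 0.19, against -0.01 over all genes tested. There were 6 positive and 3 negative values. With edgeR 0 of the 9 genes had an adjusted P below 0.01 or below 0.05, where the shares over all genes were 0% and 0.0983%. At an unadjusted P below 0.05, 1 of 9, Iigp1, was higher and 0 were lower inside the graft, where 5.76% of all genes were higher and 3.79% lower (9.55% in either direction). That count depended on single libraries and on the filter. Without inside graft 1 it was 3 of 9 higher (Iigp1, Gbp2 and Gbp5, where 5.18% of all genes were higher). Without outside graft 2, Gbp3 was lower, as were 3.88% of all genes. Gbp2 was also among the higher genes without the filter on low counts, with at least 10 counts required in every library and in DESeq2. In these settings 5.15%, 6.12% and 6.81% of all genes tested were higher. In voomWithQualityWeights 0 passed an adjusted P of 0.01 or 0.05 (0.0197% and 0.492% of all genes), and 1, again Iigp1, was higher at an unadjusted P below 0.05 (7.47% of all genes). The groups did not overlap for 1 of the 9, with every inside library above, as for 5.65% of all genes. For 6 of the 9 the 95% confidence interval lay between -1 and 1, against 55.1% of all genes. These were Gbp3, Gbp7, Gbp9 and the 3 IRGM genes.

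Summed over the 10 genes, the levels were 413, 555 and 450.5 CPM inside and 436, 329, 479 and 474 CPM outside the graft. The highest and the lowest sums were those of inside graft 2 and outside graft 2, and the groups overlapped. Iigp1 made up 4.07%, 7.95% and 7.63% of the counts of the 10 genes inside and 2.58%, 1.19%, 2.11% and 0.838% outside the graft. Its share was thus higher in every inside library, on a scale that does not depend on library size.

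**Figure D3:**
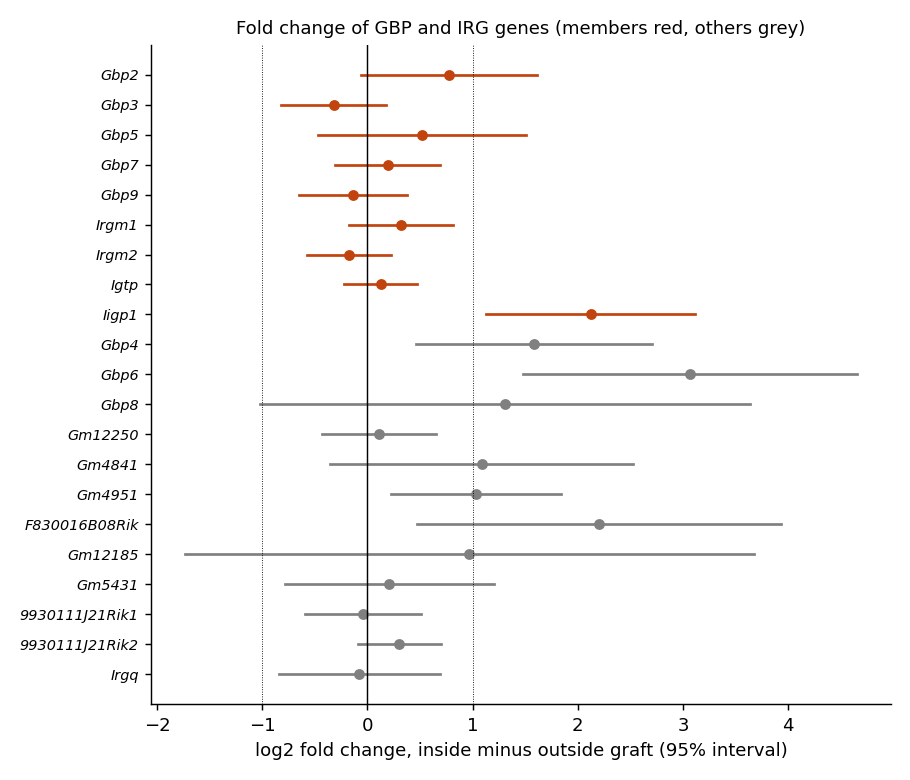
The log2 fold change, inside minus outside (x axis, edgeR), with its 95% confidence interval for the 9 tested genes (red) and 12 other tested GBP and IRG genes (grey), with dotted lines at -1 and 1. The intervals of Iigp1 (1.12 to 3.12) and Gbp6 (1.48 to 4.65) lie above 1, and those of 6 of the 9 lie between -1 and 1.

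Levels of different genes were compared per kilobase of exon, with the length that the count table gives for all exons of a gene together, so genes with long rarely used exons are understated. On this scale Igtp led outside the graft with 45.6 ± 4.24 CPM per kilobase (SD, n = 4), followed by Irgm2 with 32.8 ± 7.19. A middle group held Gbp7 with 12.9, Gbp9 with 10.5, Gbp3 with 9.72 and Gbp2 with 8.88 CPM per kilobase, and each of these overlapped its neighbour. Irgm1 with 2.92, Gbp5 with 1.65 and Iigp1 with 1.26 CPM per kilobase came next, and Ifi47 was last with 0.0258. Igtp was above 94.1% of all tested genes and Iigp1 above 27.8%. Of neighbours in this order, Gbp5 and Iigp1 also overlapped, while Igtp and Irgm2, and Irgm1 and Gbp5, had ranges that lay next to each other without overlap. The ranges of Igtp and Irgm2 lay far above those of the effectors Iigp1 and Ifi47.

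Inside the graft Igtp with 49.7 ± 10.99 and Irgm2 with 29.0 ± 3.88 CPM per kilobase (SD, n = 3) again led. Gbp2 came before Gbp7, with 15.2 and 14.8 CPM per kilobase and overlapping ranges, and Gbp9 with 9.58 and Gbp3 with 7.78 followed, again with overlap. Iigp1, with 5.45 ± 2.38 CPM per kilobase, stood seventh and above 55.9% of tested genes, ahead of Irgm1 with 3.65 and Gbp5 with 2.37. Its range overlapped those of its neighbours Gbp3 and Irgm1, and that of Irgm1 overlapped Gbp5.

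**Figure D4:**
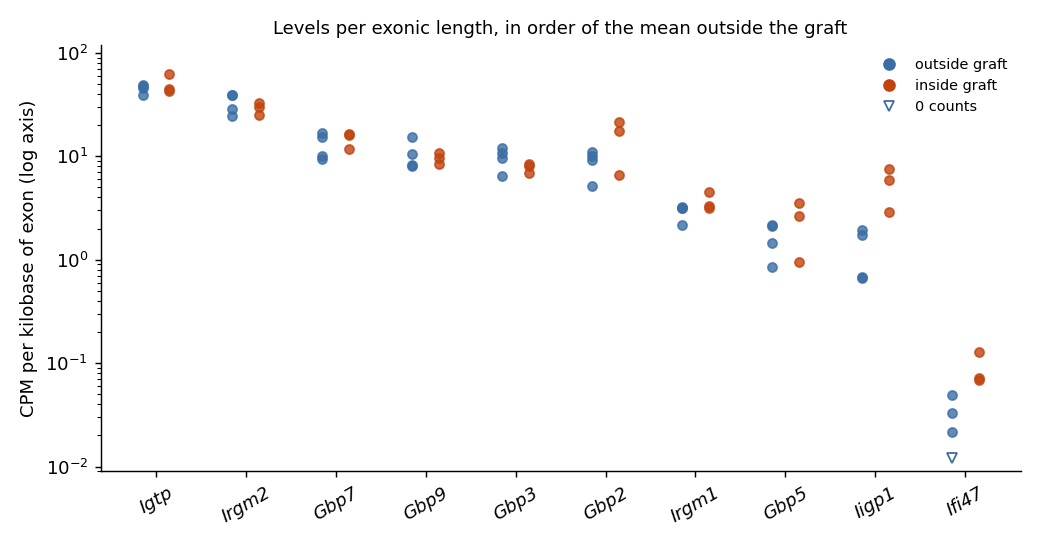
Level of each gene per exonic length in CPM per kilobase (log axis) in the outside (blue) and inside (red) libraries, ordered by the mean outside the graft, with an open triangle for a library with 0 counts. Igtp and Irgm2 lead in both groups, and Iigp1 is the ninth gene outside and the seventh inside the graft.

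The genes lie in clusters, which bears on how reads were assigned, and all 10 are annotated as protein-coding. Coordinates are those of GENCODE M21 on GRCm38. The count table holds no multi-mapping reads, and strand was not used. Gbp2 (chr3:142620602-142638008, plus strand), Gbp3 (chr3:142560026-142573209), Gbp5 (chr3:142493978-142522344) and Gbp7 (chr3:142530342-142550149) lie together on the plus strand of chromosome 3. Gbp9 (chr5:105077630-105139539, minus strand) lies in a second cluster on chromosome 5. Irgm2 (chr11:58199618-58222782, plus strand) and Igtp (chr11:58199556-58207591, plus strand) overlap and share 162 exonic bases, and Irgm1 (chr11:48861968-48871683, minus strand) and Ifi47 (chr11:49076587-49096974, plus strand) lie in another part of chromosome 11. Iigp1 (ENSMUSG00000054072.12, chr18:60376027-60392634, plus strand) lies on chromosome 18 and shares no exonic base with another gene. Of stretches of 75 bases, the read length, 0% of those of Iigp1 and Irgm1 were also found in transcripts of other genes. The largest share among the 10 was 11.3%, in Gbp7, which shares 637 exonic bases with Gm43802 on the same strand. Gbp2 overlaps Mir6381 by 24 bases and Ifi47 overlaps Gm12188 by 106 bases on the opposite strand, and reads from such antisense partners cannot be told apart.

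The other GBP and IRG genes numbered 18, of which 12 were tested. Their median log2 fold change was 1.00, with 10 positive and 2 negative values. At an unadjusted P below 0.05, 4 were higher and 0 lower inside the graft in edgeR, against 5.76% and 3.79% of all genes. At an adjusted P below 0.05 edgeR and voomWithQualityWeights both had 0, against 0.0983% and 0.492% of all genes. Gbp6 had 3.73, 5.33 and 4.21 CPM inside and 0.961, 0.133, 0.201 and 0.810 CPM outside the graft, without overlap. Its log2 fold change was 3.07 (standard error 0.71, edgeR adjusted P = 0.126), but 67.3% of its stretches of 75 bases were shared with other genes, so its level is uncertain. F830016B08Rik, an IRG gene close to Iigp1 on chromosome 18, had 12.4, 16.3 and 11.6 CPM inside and 0.0534, 3.96, 3.02 and 4.58 CPM outside the graft. It too showed no overlap, and its log2 fold change was 2.20 (standard error 0.78, edgeR adjusted P = 0.356). Gbp4 had a log2 fold change of 1.58 (standard error 0.51, edgeR adjusted P = 0.292), and inside graft 1 with 3.77 CPM lay within its outside range. Gm4951, named after its values were seen, was the other of the 4, with a log2 fold change of 1.03 (edgeR adjusted P = 0.356).

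Grouped by chromosome, which was done after the values were seen, all 4 IRG genes tested on chromosome 18 had positive log2 fold changes, from 1.03 to 2.20 with a median of 1.604. The 8 GBP and IRG genes tested on chromosome 11 had a median of 0.17, with 6 positive. The 4 on chromosome 3 had a median of 0.36 and the 4 on chromosome 5 one of 1.44. The difference between the clusters was not tested.

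Genes of the interferon gamma pathway were read beside these. Ifng, the ligand, had 6 counts in inside graft 2 and 0 counts in each of the other 6 libraries. A count of 0 allows up to 3 counts for counting error only, and amplified reads vary more than that, so the ligand was not measured well enough to be compared. Ifngr1, the ligand-binding receptor chain, had 999, 953 and 925.5 CPM inside and 1122, 1072, 1247 and 1221 CPM outside the graft. Every inside library lay below every outside library, as for 5.02% of all genes, and the log2 fold change was -0.28 (standard error 0.10, edgeR adjusted P = 0.330). Ifngr2, the second chain, had a log2 fold change of 0.08 (edgeR adjusted P = 0.915). Irf1 and the feedback inhibitor Socs1 had log2 fold changes of 0.18 and 0.13 (edgeR adjusted P = 0.859 and 0.953). Over the 11 tested genes of interferon gamma signalling the median was -0.01 on the log2 scale. For 10 of them the 95% confidence interval lay between -1 and 1, against 55.1% of all genes.

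Other targets of interferon gamma, outside the GBP and IRG families, were set beside them. Of 15 tested, 10 were higher and 0 lower at an unadjusted P below 0.05 in edgeR, against 5.76% and 3.79% of all genes. Their median log2 fold change was 1.62, and the difference from the 9 GBP and IRG genes was not tested. Cxcl10, a chemokine for T cells, had 23.1, 49.3 and 20.05 CPM inside and 0, 2.85, 2.94 and 3.32 CPM outside the graft. For Cxcl10 the log2 fold change came to 3.74 (edgeR adjusted P = 0.0933). The MHC class II genes H2-Aa and H2-Eb1, which present antigen, had log2 fold changes of 3.68 and 3.55 (edgeR adjusted P = 0.0653 and 0.0589). For these 3 genes the groups did not overlap. At an adjusted P below 0.05 edgeR called 1 of the 15, Cd274, the gene of PD-L1, and 0.0983% of all genes. At this threshold voomWithQualityWeights called 5, namely Cd274, Cd74, H2-Aa, H2-Ab1 and H2-Eb1, and 0.492% of all genes. Cd274, Cd74 and H2-Ab1 are named here after their values were seen.

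Genes linked to type I interferon had positive log2 fold changes in all 21 that were tested. Of these, 14 were higher and 0 lower at an unadjusted P below 0.05 in edgeR, against 5.76% and 3.79% of all genes. In either test 0 passed an adjusted P of 0.05. The median log2 fold change of the 21 was 0.92. For 12 of them all inside libraries were above those from outside, as for 5.65% of all genes. The genes with the largest differences were Ifi44 (2.67), Ifi27l2a (1.63) and Ifi204 (1.33), with edgeR adjusted P values of 0.427, 0.116 and 0.101. Ifnb1 itself was not tested because of its low counts. Many genes respond to both kinds of interferon, the GBPs and IRGs among them, so the lists do not separate the ligands.

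Genes of proteins that GBPs and IRGs work with formed a list of 20. They cover the autophagy conjugation proteins that place IRGs on vacuoles, the lipid transferases that anchor GBPs, and inflammasome components. Their median log2 fold change was -0.06, and for 18 the 95% confidence interval lay between -1 and 1, against 55.1% of all genes. Casp4, the caspase (caspase-11) that senses lipopolysaccharide, alone had an unadjusted P below 0.05 in edgeR, as did 9.55% of all genes. It had 27.1, 29.9 and 35.4 CPM inside and 14.0, 17.0, 22.2 and 24.1 CPM outside the graft, without overlap. The log2 fold change of Casp4 was 0.67 (standard error 0.22, edgeR adjusted P = 0.312).

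**Figure D5:**
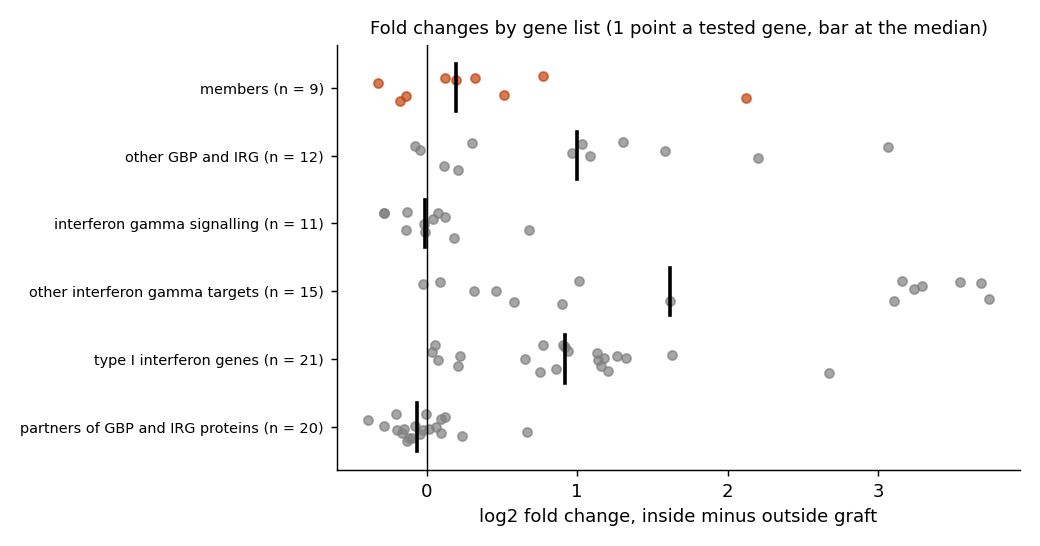
The log2 fold change, inside minus outside (x axis, edgeR), of each tested gene in 6 gene lists, with 1 point a gene and a bar at the median of the list. The 9 tested genes have a median of 0.19 and their highest value is that of Iigp1 (2.12), whereas the other interferon gamma targets have a median of 1.62 and the type I interferon genes one of 0.92.

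Markers of other cells that can hold interferon-induced RNA moved with the groups in part. At an unadjusted P below 0.05 in edgeR, the test for each count here, 5.76% of all genes were higher and 3.79% lower inside the graft. Of 9 tested monocyte markers 5 were higher and 0 lower, with summed levels of 89.8 to 1373 CPM inside and 9.87 to 40.3 CPM outside. Chil3, their most abundant gene inside the graft, had 587, 67.6 and 1189 CPM in inside graft 1 to 3. Of 8 tested markers of border-associated macrophages 6 were higher, with summed levels of 396 to 651 CPM inside and 533 to 633 CPM outside. Most of these sums was Stab1, and without it, a choice made after its values were seen, they were 118, 16.8 and 125 CPM inside and 17.8, 5.96, 10.8 and 15.7 CPM outside. Ly6c2, Chil3, Ms4a7 and Pf4 were near 0 in several outside libraries and passed the filter on low counts through the inside libraries. Counts over tested markers thus favour genes high in a single group and leave out markers low in both. The lists above hold such genes too, Gbp6, Cxcl9 and Ifi44 among them. Of 12 microglia markers 5 were lower, among them P2ry12 with a log2 fold change of -0.46 (edgeR adjusted P = 0.185). The 12 markers of T and NK cells summed to 2.35 to 12.8 CPM inside and 0.480 to 1.37 CPM outside, and 1 of them, Prf1, was tested. Nkg7 had 60, 0 and 284 counts in inside graft 1 to 3 and 0 in each outside library. Cd4 had 54, 11 and 1 counts inside and 4, 2, 0 and 0 outside. Klrb1c and Prf1 had slightly higher means outside (0.342 and 0.262 CPM, against 0.240 and 0.253 CPM inside). Cd3g had 0, 22 and 0 counts inside and 0, 0, 0 and 1 outside, and Trac had 5 counts in inside graft 2 alone. Cd8a had 4 counts in inside graft 2 and 2 in outside graft 1. Cd3e had 1 count in each of the same libraries, and Cd8b1 had 2 counts in outside graft 1 alone. Cd3d, Ncr1 and Gzmb were at 0 in all 7 libraries. Of 4 tested endothelial markers 0 were higher and 1 was lower, with sums of 30.7 to 40.4 CPM inside and 37.5 to 61.2 CPM outside. Of 8 tested markers of neurons, astrocytes and oligodendrocytes 1 was higher and 1 lower, with sums of 57.3 to 66.8 CPM inside and 57.6 to 65.5 CPM outside. The part of these cells in the level of Iigp1 was not tested.

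The genes most like the 9 in their pattern over the 7 libraries were found by the mean absolute difference between a gene's log2 CPM, less its own mean, and the median of the 9 genes treated the same way. They were Map3k12 (0.0520), Adar (0.0623), N6amt1 (0.0800), Eri2 (0.0821) and Lrrc57 (0.0848). Among the 9 genes themselves Igtp was nearest to the median (0.0685) and Iigp1 farthest from it (0.990). On the log2 scale the median was -0.14, 0.41 and -0.01 in inside graft 1 to 3 and -0.04, -0.42, 0.09 and 0.09 in outside graft 1 to 4. Inside graft 2 was highest and outside graft 2 lowest, and the other libraries of both groups overlapped.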

How the data were processed

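RNA-seq of sorted microglia was analysed for 3 libraries from inside and 4 from outside the graft, grouped by their labels. Per the submitters' processing notes the authors used STAR 2.7.2a and featureCounts 1.6.2. They deposited raw counts per gene name of GENCODE M21 (GRCm38), in which multi-mapping reads were left out, strand was ignored and a read went to the gene with the largest overlap. The reads were PCR-amplified and carry no molecular identifiers, so they do not count molecules. None of the 9 pairs of libraries within a group was as alike as counting noise alone would make it.

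With R 4.3.3, counts were filtered by filterByExpr, scaled by TMM and tested with edgeR 4.0.16 (glmQLFit, glmQLFTest), with limma 3.58.1 (voomWithQualityWeights, as in the paper's methods) and, as an alternative, with DESeq2 1.42.0. P values were adjusted over the 15257 genes tested, with thresholds of 0.01 and 0.05. The fits were tested on simulated data. The 10 genes and the gene lists were chosen with earlier results of these data known. Named were all 10 genes, the ligand, receptor chains, Irf1 and Socs1 of interferon gamma signalling (1 further gene is not reported here), at most 3 genes per list with the largest change at an unadjusted P below 0.05, some of which are not described, and the 5 genes most alike in pattern. Alternatives were other normalizations, filters and tests, a replicate block and each library left out.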

Additional observations from a re-analysis of the deposited data

Results flagged for a closer look

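Of 37 genes checked over the 4 outside libraries, 6 had 1 library far from the other 3. The cutoff would flag 1.85 if values were normal and genes independent. Levels near 0 and genes of shared pathways do not meet this, so 1.85 is no chance rate here. Of the 6 flagged genes, 1 was among the 10 genes. Irgm1 had 12.7 CPM in outside graft 2, against 18.2 to 18.7 CPM in the other outside libraries. Cxcl10 had 0 CPM in outside graft 1, against 2.85 to 3.32 CPM. In outside graft 3, Chil3 was at 14.97 CPM, against at most 1.38 CPM, and Clec10a was at 0.483 CPM, against 0 CPM in the others. Pecam1 had 27.3 CPM in outside graft 3, against 39.0 to 41.5 CPM. Ms4a7 had 2.51 CPM in outside graft 4, against 0.107 to 0.362 CPM.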

How the results depend on the processing

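At an adjusted P below 0.01, edgeR called 0 of the 9 genes, against 1 (Iigp1) both without the filter on low counts and in the DESeq2 Wald test, which called 0.644% and 1.52% of all genes they tested, against 0% in edgeR with the filter. The cause was not tested. At 0.05 Iigp1 also passed with at least 10 counts required in every library (adjusted P of 0.0336 in edgeR and 0.0165 in voomWithQualityWeights). These fits called 92 and 211 of all 12066 genes tested, against 15 and 75 of 15257 in the main fits. In voomWithQualityWeights Iigp1 also passed without the filter (0.0433, with 225 of 29525 genes called) and without inside graft replicate 1 (0.0158, with 56 of 15901). With a replicate block Iigp1 passed in voomWithQualityWeights (0.0206, with 265 of 14900). Its log2 fold change ran from 1.81 to 2.43 over the alternatives of the edgeR result, with adjusted P from 0.000251 to 0.329, and reached 2.68 in voomWithQualityWeights without inside graft replicate 1. The sign reversed for Igtp (-0.07) without inside graft replicate 2 and for Gbp9 (0.10) without outside graft replicate 1. It reversed for none of the other 7 genes under the alternatives of the edgeR result. Signs in the voomWithQualityWeights fits under other settings were not compared for these genes, except Iigp1. With each library left out, Igtp ran from -0.07107 to 0.228 and Gbp9 from -0.2447 to 0.1025. The ranges were 0.44 to 1.14 for Gbp2, 0.11 to 0.90 for Gbp5, 0.07 to 0.35 for Gbp7, 0.14 to 0.41 for Irgm1, -0.29 to -0.08 for Irgm2 and -0.48 to -0.20 for Gbp3, each reaching over 1.5 times above or below the value from all libraries. The median of the 9 genes ran from 0.09 to 0.35 with each library left out and was 0.08 in voomWithQualityWeights.

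The labels number the libraries alike in both groups. Deviations of same-numbered libraries had correlations of -0.04, 0.09 and 0.05, against -0.096 to 0.059 for libraries of different number. These values overlap and cannot show whether the numbers mark pairs, so no pairing was used in the main fit. In a fit with a replicate block, without outside graft 4, 0 of the tested genes of the set passed 0.01 in either test. In edgeR this fit called 0.0336% of all 14900 genes tested at 0.01. The median of the tested genes of the set was 0.33, and Iigp1 had an adjusted P of 0.329 in edgeR and 0.0206 in voomWithQualityWeights. At 0.05 edgeR called 43 and voomWithQualityWeights 265 of the 14900 genes. Depth limits Ifi47, which had at most 8 counts in a library.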
